A study of Mus musculus with 35 samples.

Results

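Complement components and receptors of the mouse were followed across myeloid-derived suppressor cells (MDSC) and whole tumors of a pancreatic cancer model. The members were chosen by gene symbol, through the Ensembl identifiers of the count table, and are 9 of the 53379 genes in it. They are C1qa (ENSMUSG00000036887.5), C1qb (ENSMUSG00000036905.8) and C1qc (ENSMUSG00000036896.5), C4b (ENSMUSG00000073418.4), C3 (ENSMUSG00000024164.15), Cfb (ENSMUSG00000090231.10), Cfp (ENSMUSG00000001128.7), C3ar1 (ENSMUSG00000040552.8) and C5ar1 (ENSMUSG00000049130.6). All 9 are protein-coding genes on the minus strand of GRCm38, the build that mm10 denotes.

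The mice were female C57BL/6 animals that carried orthotopic tumors of T110299, a cell line derived from 1 pancreatic tumor of a Ptf1a-Cre LSL-Trp53fl/R172H mouse, in which Cre acts in pancreatic cells. The tumor cells carried the engineered alleles, whereas the MDSC came from the host. Treated animals received 50 µg poly(I:C) complexed with polyethylenimine at an N/P ratio of 6, called poly(I:C)c, intravenously on days 18 and 20 after tumor induction, and the untreated animals received glucose. The RNA in this complex mimics viral double strands, activates innate RNA sensors and induces type I interferon. Polymorphonuclear MDSC (PMN-MDSC, CD11b+Ly6CloLy6G+) and monocytic MDSC (M-MDSC, CD11b+Ly6ChiLy6G-) were sorted from spleen and tumor after magnetic enrichment of CD11b+ cells, and pieces of whole tumor were lysed directly as bulk tumor. There were 4 libraries in each group, except for 3 of PMN-MDSC from treated spleens and 3 of M-MDSC from treated tumors, where another library held 10 counts and was left out. All tumor-bearing groups share the surgery and the tumor, and no tumor-free mice were analysed here.

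Complement is a cascade of plasma proteins that tags surfaces for removal and recruits leukocytes. The C1q complex starts the classical pathway and C4 carries it on to C3, the protein at which all pathways meet, while factor B and properdin form and stabilize the C3 convertase of the alternative pathway. The fragments C3a and C5a act on myeloid cells through G protein-coupled receptors. The liver makes most plasma complement, but macrophages are the main source of C1q, and myeloid cells also make C3, factor B and properdin.

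Libraries held 793070 to 8886115 counts on genes, with the M-MDSC library numbered 24 of untreated tumors the smallest and the 4 bulk tumor libraries among the largest. Libraries are named by the running number of their column. Levels are given as CPM, counts scaled to a common total over all genes. In the untreated libraries, Ly6g, the antigen that defines PMN-MDSC in the sort, was at 34.5 to 84.7 CPM in PMN-MDSC from spleen but at 0 to 9.19 CPM in PMN-MDSC from tumor. The summed level of 9 markers of tissue and tumor macrophages, such as the mannose receptor Mrc1, was 8558 to 11931 CPM in PMN-MDSC from untreated tumors, 3446 to 8017 CPM in M-MDSC from untreated tumors and at most 1023 CPM in untreated MDSC from spleen. The untreated libraries labelled PMN-MDSC from tumor thus held little of their defining transcript and much of macrophage transcripts, and the names are used below as labels of the sort. In M-MDSC library 28 from treated tumors, Ly6c2 was at 2.98 CPM against 443 and 622 CPM in libraries 32 and 16, and the macrophage sum was 23816 CPM against 9046 and 4529 CPM. In a sorted population, fewer cells of a type and less RNA per cell cannot be told apart.

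The upstream regions of 2 genes of the C1q cluster, whose levels moved together, and of C3, which rose under treatment in PMN-MDSC of both organs, are shown here, taken from RefSeq on GRCm38.p6, from 250 bases before to 50 bases after the start site. Windows were found for 6 of the 9 members, C1qb, C1qc, C3, Cfp, C3ar1 and C5ar1. The motifs searched, on both strands, were the core of the interferon-stimulated response element (GAAA, any 2 bases, GAAA), the gamma-activated sequence (TTCNNNGAA), a core bound by PU.1 (GAGGAAG) and a core bound by C/EBP factors (TTGCNNAA). Over 32544 windows of the same length, 3.45%, 8.33%, 13.4% and 10.8% held a match to these motifs in this order. C1qb at chr4:136886151-136886450 and C1qc at chr4:136892865-136893164 belong to the cluster that encodes the C1q chains, and C3 lies at chr17:57228087-57228386. Capitals mark motif matches, a PU.1 core on the opposite strand in C1qc from base -194 to -188 and a C/EBP core in C3 from base -45 to -38, counted from the start site.
C1qb: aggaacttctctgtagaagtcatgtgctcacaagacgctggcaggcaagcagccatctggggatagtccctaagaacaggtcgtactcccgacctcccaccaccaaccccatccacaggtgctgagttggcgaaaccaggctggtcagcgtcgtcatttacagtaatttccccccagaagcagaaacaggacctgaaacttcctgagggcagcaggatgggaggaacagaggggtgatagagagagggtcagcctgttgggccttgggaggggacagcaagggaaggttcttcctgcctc
C1qc: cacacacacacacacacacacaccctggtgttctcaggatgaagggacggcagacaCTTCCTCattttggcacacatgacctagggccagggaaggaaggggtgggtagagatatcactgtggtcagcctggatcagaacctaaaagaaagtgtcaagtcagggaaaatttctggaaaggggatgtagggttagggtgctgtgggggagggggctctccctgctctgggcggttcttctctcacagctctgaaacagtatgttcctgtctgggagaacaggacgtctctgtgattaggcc
C3: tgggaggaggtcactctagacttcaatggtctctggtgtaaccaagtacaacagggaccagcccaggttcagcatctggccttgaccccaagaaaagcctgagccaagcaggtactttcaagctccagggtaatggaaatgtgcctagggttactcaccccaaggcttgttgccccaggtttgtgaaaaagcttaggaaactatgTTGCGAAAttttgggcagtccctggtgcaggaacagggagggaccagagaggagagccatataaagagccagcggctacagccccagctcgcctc
No other match was found in the 6 windows. A match is a description of the letters and not a binding site.

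**Figure D1:**
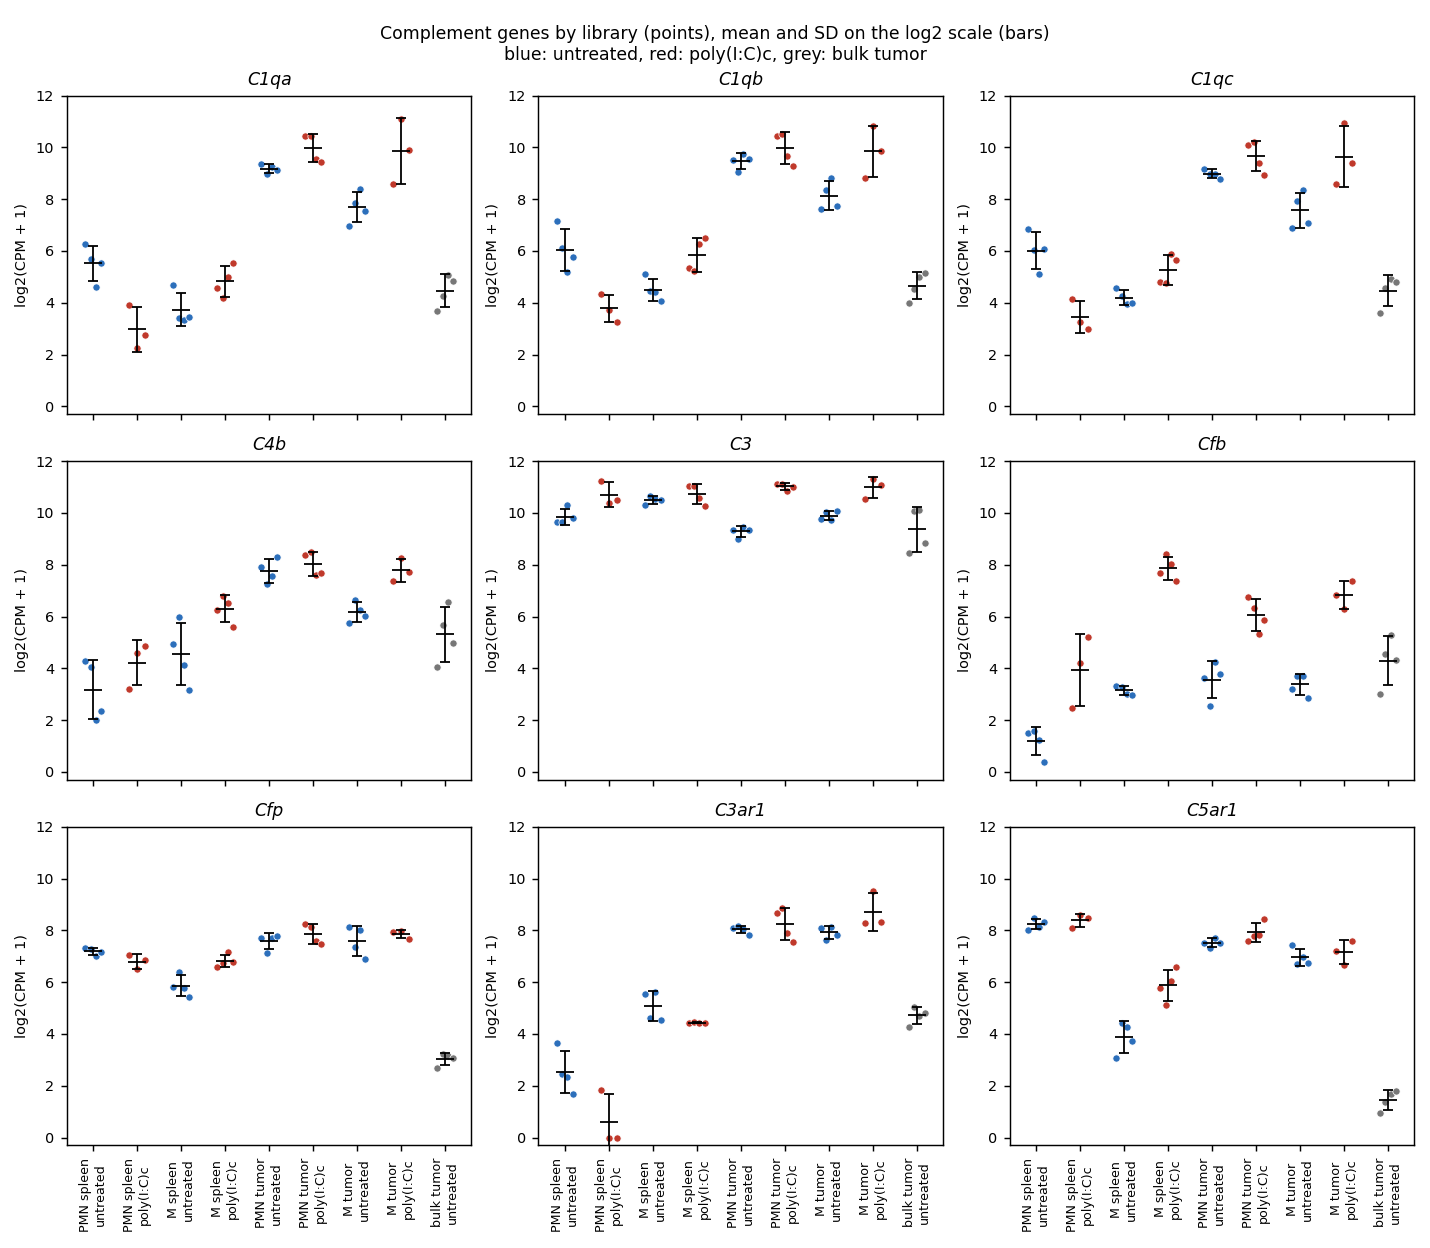
Level of each complement gene in each library as log2(CPM + 1), with 1 point per library, the group mean and the SD; blue points are untreated, red points treated with poly(I:C)c and grey points bulk tumor. The C1q genes and C3ar1 were highest in cells from tumors, and Cfb was higher in every treated library than in the untreated libraries of its cell type and organ.

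Genes that averaged 25 counts or more over the libraries compared were tested with edgeR's quasi-likelihood test, two-sided, and a gene was called at an adjusted p under 0.05 (Benjamini-Hochberg over all genes tested). Under treatment, 4 of 7 members tested were called in PMN-MDSC from spleen, where 11.6% of all tested genes were called, and 5 of 9 in M-MDSC from spleen, where 19.6% were. In cells from tumors, 2 of 9 members were called in PMN-MDSC (3.36% of all genes) and 2 of 9 in M-MDSC (2.88%). In TMM-scaled CPM, treated and untreated ranges were separate for 4, 5, 3 and 6 members in this order, against 26.7%, 25.8%, 12.1% and 19.5% of all tested genes. With edgeR and the threshold that the study used with DESeq2, an adjusted p under 0.001 and at least 2-fold, Cfb in M-MDSC from spleen (2.47% of all genes) and C3 in PMN-MDSC from tumor (0.241%) were called, and 0 members in PMN-MDSC from spleen (0.0413%) and in M-MDSC from tumor (0.0120%). With DESeq2 itself that rule called 4 members in PMN-MDSC from spleen (517 of 7261 genes) and 4 in M-MDSC from tumor (215 of 8360 genes). The 4 treatment comparisons had no library in common, while comparisons between untreated groups use the same untreated libraries as they do. The sample labels repeat the same numbers over the untreated groups, bulk tumor included, and over the treated groups. By these labels the same mice gave libraries to several groups, so the 4 treatment comparisons were not independent. Within a group the p-values measure the spread between libraries of different mice. Comparisons between organs or cell types, those with bulk tumor and the interactions treated libraries of the same mice as independent.

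**Figure D2:**
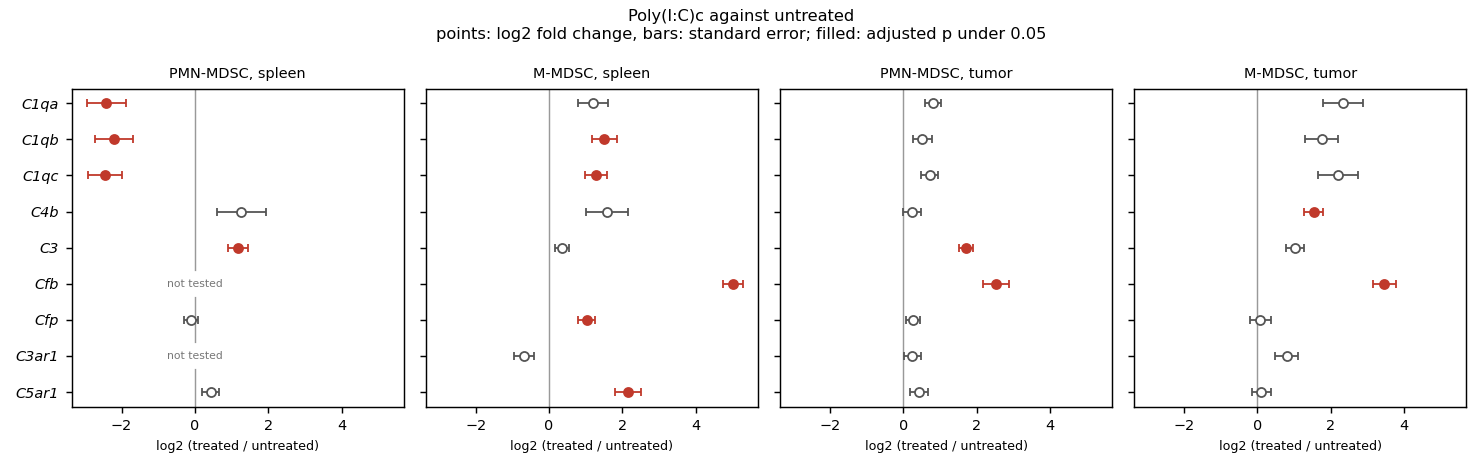
Log2 fold change of treated over untreated libraries for each member in the 4 sorted populations, with the standard error as bars; filled red points have an adjusted p under 0.05 by edgeR. The C1q genes lie at -2.45 to -2.21 in PMN-MDSC from spleen and above 0 in the other populations, and Cfb lies at 2.53 to 5.02 where it was tested.

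C1qa (chr4:136895917-136898803), C1qb (chr4:136880129-136886187) and C1qc (chr4:136889804-136893065) encode the A, B and C chains of C1q, which assemble into one molecule. In untreated mice, C1qa was at 75.6, 50.3, 23.7 and 45 CPM in PMN-MDSC from spleen and at 655, 508, 608 and 563 CPM in PMN-MDSC from tumor. In M-MDSC it was at 24.8, 9.75, 9.1 and 10 CPM in spleen and at 125, 233, 334 and 188 CPM in tumor. All tumor libraries stood above all spleen libraries in both cell types.

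Tumor MDSC had 10.9-fold higher C1qa than spleen MDSC in PMN-MDSC (log2 fold change 3.45, SE 0.308, adjusted p = 1.3e-05) and 20.2-fold higher C1qa in M-MDSC (4.34, SE 0.377, adjusted p = 9.5e-06, edgeR). For C1qb the log2 fold changes were 3.16 and 4.00 and for C1qc 2.73 and 3.82, with all 4 adjusted p at most 6.5e-05. The macrophage sum was likewise higher in all tumor than in all spleen libraries of each cell type, while the neutrophil sum was lower in all of them, and the part of these shifts in the level of any member was not tested. Between tumor and spleen 59.1% of all genes were called in PMN-MDSC and 28.4% in M-MDSC. Of the members, 7 of 8 tested were called in PMN-MDSC, 5 of them higher in tumor (29.4% of all genes were), and 6 of 8 in M-MDSC, all higher in tumor (15.7%).

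In untreated mice the C1q genes were lower in M-MDSC than in PMN-MDSC. In spleen the log2 fold changes were -2.26 (SE 0.412) for C1qa, -2.10 (SE 0.406) for C1qb and -2.37 (SE 0.336) for C1qc, with adjusted p of 0.00108, 0.00150 and 2.5e-04 by edgeR. In tumors they were -1.45 (SE 0.233), -1.33 (SE 0.242) and -1.35 (SE 0.266), with adjusted p of 0.00143, 0.00367 and 0.00605. The M-MDSC from tumor held fewer macrophage transcripts than the PMN-MDSC from tumor, with no overlap of the sums, whereas in spleen the macrophage sum was 766 to 1006 CPM in M-MDSC and 349 to 1023 CPM in PMN-MDSC. Markers of red pulp macrophages, the splenic macrophages that recycle iron, went the other way in spleen, at 517 to 703 CPM in M-MDSC and 1091 to 2104 CPM in PMN-MDSC. Classical monocyte markers were higher and neutrophil markers lower in M-MDSC than in PMN-MDSC of both organs, without overlap. The part of these cells in the level of any member was not tested. Of the members, 6 of 8 tested were called between the cell types in spleen (64.4% of all genes) and 6 of 8 in tumor (13.0%).

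**Figure D3:**
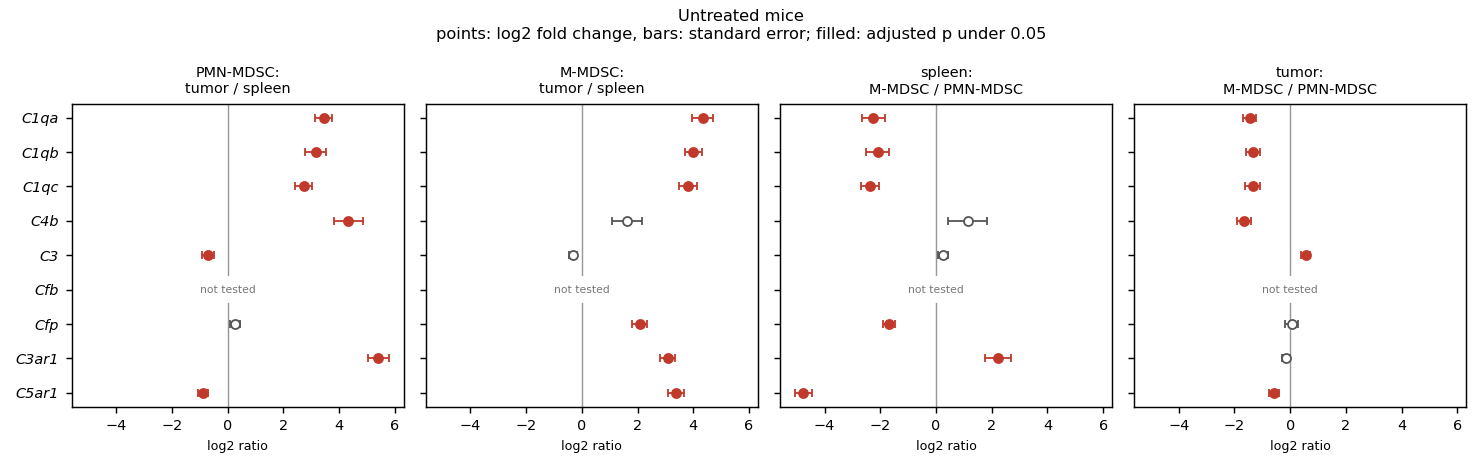
Log2 ratios between groups of untreated mice for each member, with the standard error as bars; filled red points have an adjusted p under 0.05 by edgeR. The C1q genes lie at 2.73 to 4.34 between tumor and spleen and at -2.37 to -1.33 between M-MDSC and PMN-MDSC.

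Poly(I:C)c went with lower C1q in PMN-MDSC from spleen. C1qa was at 14.1, 3.71 and 5.76 CPM in the treated libraries, C1qb at 19.2, 12.3 and 8.64 CPM and C1qc at 16.6, 8.54 and 6.84 CPM. The untreated libraries held 23.7 to 75.6 CPM of C1qa, 35.9 to 140 CPM of C1qb and 33.5 to 114 CPM of C1qc. The treated libraries lay below all untreated ones for each of the 3 genes.

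The fall was 5.35-fold for C1qa (log2 fold change -2.42, SE 0.531, adjusted p = 0.0234), 4.61-fold for C1qb (-2.21, SE 0.508, adjusted p = 0.0275) and 5.48-fold for C1qc (-2.45, SE 0.472, adjusted p = 0.0165, edgeR). The direction held without each library. The call of C1qa was lost without library 1, 21, 25 or 29 (adjusted p 0.0572 to 0.0836), that of C1qb without 21, 25 or 29 (0.0504 to 0.0946) and that of C1qc without 25 or 29 (0.0522 and 0.0601). Without library 9, the treated library with the highest C1q, the log2 fold change of C1qa was -3.04. The macrophage sum was 92.1 to 217 CPM in these treated libraries against 349 to 1023 CPM untreated, the red pulp sum 507 to 784 against 1091 to 2104 CPM, and Vcam1, a marker of red pulp macrophages, 5.76 to 21.1 against 97.2 to 348 CPM. The sums of conventional dendritic cell (7.92 to 60.9 against 258 to 443 CPM), B cell, T cell, epithelial, endothelial and erythroid markers were also lower without overlap, and that of plasmacytoid dendritic cell markers was higher (28.2 to 48.6 against 10.5 to 27.3 CPM). Whether fewer macrophages among the sorted cells or less C1q RNA per cell gave the lower level was not tested.

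In M-MDSC from spleen, 2 of the 3 C1q genes rose by edgeR and all 3 by DESeq2. C1qb was at 33.2, 20.9, 20.3 and 15.9 CPM in the untreated libraries and at 39.1, 36.7, 76 and 90.7 CPM in the treated ones, and C1qc at 22.7, 18.1, 14.5 and 15 CPM against 27.2, 25.9, 57.4 and 49.5 CPM. The groups did not overlap for these genes. C1qb rose 2.86-fold (log2 fold change 1.51, SE 0.353, adjusted p = 0.0156) and C1qc 2.41-fold (1.27, SE 0.300, adjusted p = 0.0163, edgeR). The call of C1qb ended with no filter on low counts (1.52, adjusted p = 0.0572) and that of C1qc in 1 fit over all groups (1.25, adjusted p = 0.0518).

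C1qa was at 22.5, 17.2, 31.1 and 46 CPM in the treated M-MDSC from spleen, with a log2 fold change of 1.21 (SE 0.410) and an adjusted p of 0.0675 by edgeR, while DESeq2 called it as well as C1qb and C1qc. Untreated library 2 stood at 24.8 CPM, inside the treated range. Without it, C1qa was called (1.67, adjusted p = 0.0175), as it was without library 14 (1.38, adjusted p = 0.0477), and the call of C1qc was lost without library 22 (1.18, adjusted p = 0.0518). In the same libraries the macrophage sum was lower with treatment, at 263 to 560 CPM against 766 to 1006 CPM, while the red pulp sum was higher, at 1010 to 1441 CPM against 517 to 703 CPM. Mrc1 was at 2.04 to 18.1 CPM treated and 43.2 to 85.3 CPM untreated, and Vcam1 at 24.9 to 48.2 against 36.7 to 54.3 CPM. Endothelial markers (129 to 293 against 25 to 34.8 CPM) and plasmacytoid dendritic cell markers (140 to 230 against 80.2 to 107 CPM) were also higher without overlap. Classical monocyte and erythroid markers were lower without overlap. The part of all these cells in the rise of C1q was not tested.

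In PMN-MDSC from tumor, no C1q gene was called. C1qa was at 1383, 1405, 752 and 693 CPM in treated libraries, all above the untreated range of 508 to 655 CPM, and its log2 fold change was 0.81 (SE 0.231, adjusted p = 0.0918, edgeR). C1qb and C1qc overlapped, with log2 fold changes of 0.52 (SE 0.257) and 0.72 (SE 0.240). Libraries 11 and 15 were about as high as each other and well above 27 and 31, and their macrophage sums of 14797 and 15401 CPM were likewise above 10334 and 6070 CPM. Without library 31, C1qa and C1qc passed the threshold (0.93 and 0.87, both with adjusted p = 0.0399), and with all libraries both were called by DESeq2 and by edgeR with no filter on low counts (adjusted p of 0.00208 and 0.00946).

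In M-MDSC from tumor, the treated libraries spread widely. C1qa was at 380, 2192 and 961 CPM in libraries 16, 28 and 32, C1qb at 456, 1823 and 928 CPM and C1qc at 386, 1941 and 676 CPM. All lay above the untreated libraries, which reached 334, 455 and 323 CPM, though for C1qb library 16 (456 CPM) lay so close to untreated library 20 (455 CPM) that the groups overlapped after TMM scaling. The log2 fold changes were 2.33 (SE 0.537), 1.76 (SE 0.450) and 2.20 (SE 0.548), with adjusted p of 0.0560, 0.0697 and 0.0673 by edgeR. EdgeR with no filter on low counts passed 449 of 25966 genes at the stricter threshold here, against 1 of 8360 with the filter. It called C1qa (adjusted p = 0.00230) and C1qb (adjusted p = 1.3e-09), while DESeq2 called all 3 C1q genes. Without library 16 all 3 were called (adjusted p 0.0102 to 0.0222), and without library 28, the one with little Ly6c2 and the highest macrophage sum, the log2 fold changes were 1.53, 1.15 and 1.30 with adjusted p of 0.0675, 0.115 and 0.0935. Marker sums moved in all treated libraries of this population, with red pulp markers at 1163 to 3204 CPM against 540 to 861 CPM untreated and classical monocyte markers at 2561 to 5905 CPM against 9408 to 12664 CPM. Markers of endothelium (74.6 to 157 against 20.2 to 43.8 CPM), conventional dendritic cells (166 to 660 against 105 to 138 CPM) and plasmacytoid dendritic cells (142 to 202 against 109 to 112 CPM) were also higher without overlap. Their part in the C1q levels was not tested.

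The treatment effects on C1q differed between populations. In PMN-MDSC the effect in tumor exceeded that in spleen by 3.26 for C1qa (log2 scale, SE 0.551, adjusted p = 0.00827), 2.74 for C1qb (SE 0.556, adjusted p = 0.0168) and 3.19 for C1qc (SE 0.518, adjusted p = 0.00687, edgeR interaction). These were the 3 members called of 9 tested, against 3.50% of all genes. Without library 29 the call of C1qb was lost (2.46, adjusted p = 0.0658), and without library 9 the difference for C1qa was 3.88. In spleen, the effect in M-MDSC exceeded that in PMN-MDSC by 3.57 (SE 0.690), 3.63 (SE 0.641) and 3.65 (SE 0.566) for C1qa, C1qb and C1qc, with adjusted p of 0.00709, 0.00468 and 0.00241, and all 3 calls held without each library. This comparison was added after the opposite changes had been seen, and 5 of 9 members were called in it, against 10.9% of all genes. With no filter on low counts C3ar1 was called there too (2.20, adjusted p = 0.0360).

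In M-MDSC, the effects in tumor and spleen did not pass the threshold for a difference in any member (0 of 9, against 0.790% of all genes). For the C1q genes the differences were 1.14 (SE 0.731), 0.28 (SE 0.620) and 0.95 (SE 0.673), and without library 28 they were 0.32, -0.35 and 0.03. By edgeR 5 members had an unadjusted p under 0.05, as did 1238 of 8730 genes. DESeq2 called 3, Cfb, C3ar1 and C5ar1, against 307 of 8730 genes. With no filter on low counts edgeR called these and C1qa (1.11, adjusted p = 0.0431), against 659 of 29825 genes. Between M-MDSC and PMN-MDSC of tumors, 0 members were called by edgeR (0.0239% of all genes) and 0 by DESeq2 (22 of 8385 genes). By edgeR 5 members had an unadjusted p under 0.05 there, as did 720 of 8385 genes. With no filter on low counts edgeR called C4b (1.27, adjusted p = 0.0141), against 161 of 32574 genes.

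The levels of the 3 C1q chains went together across libraries, while their proportions varied. Over the 30 MDSC libraries, the Pearson r of log2(CPM + 1) was 0.99 for each pair of chains, a description of libraries that share cell types and depth. Per kilobase of exon (FPKM), C1qa was at 0.428 to 1.26 times C1qb (median 0.78) in the 31 libraries with at least 100 C1q counts, and C1qc at 0.308 to 0.699 times C1qb (median 0.437). The ratio of C1qa to C1qb was 0.428 to 0.602 in M-MDSC of treated spleen and 0.678 to 1.26 in all MDSC of tumor, without overlap, and 0.565 to 0.882 in PMN-MDSC of untreated spleen, which overlapped the tumor range. In M-MDSC of untreated spleen it was 0.47 to 0.78, which overlapped both the treated spleen and the tumor range. On this scale C1qb led in untreated PMN-MDSC from tumor at 664 ± 127 FPKM (SD, n = 4), above C1qa at 561 ± 60.3 and C1qc at 262 ± 31 FPKM.

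**Figure D4:**
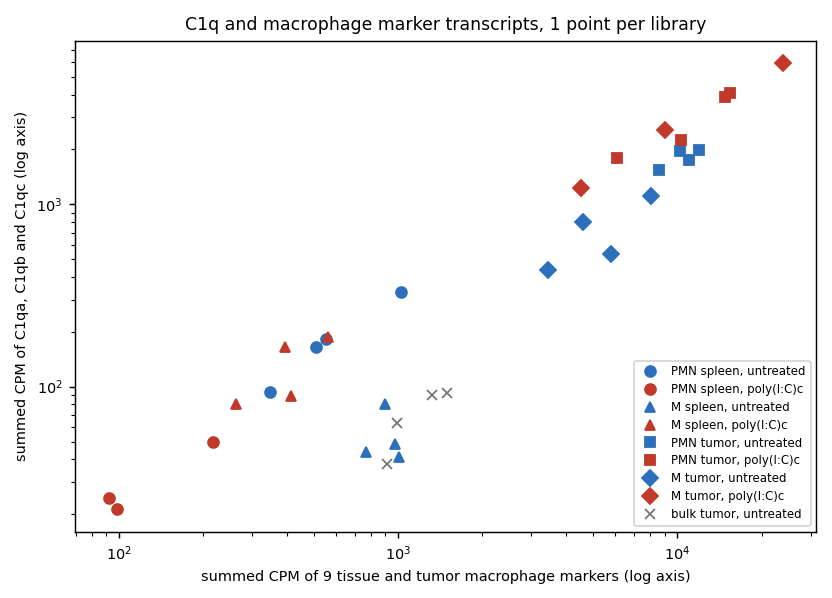
Summed CPM of C1qa, C1qb and C1qc against the summed CPM of 9 tissue and tumor macrophage markers, both on log axes, with 1 point per library; colors give the treatment and shapes the cell type and organ. The C1q sum ran from 21.2 CPM in PMN-MDSC of a treated spleen to 5956 CPM in M-MDSC library 28 of a treated tumor, and the M-MDSC from treated spleens (79.8 to 186 CPM of C1q) lie to the left of those from untreated spleens (40.9 to 80.7 CPM) with little overlap in C1q.

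The genes whose levels followed the C1q mean most closely over the 30 MDSC libraries were Fblim1, Ms4a14 and Itga9 (Pearson r 0.96 each) and H2-M2 and Cd72 (0.95 each), among the 8533 genes that averaged 25 counts or more there.

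C4b (chr17:34728380-34743882) encodes the mouse complement component C4 of the classical and lectin pathways. Its neighbour C4a is nearly identical, so reads of the pair may have been split or lost in counting, and C4a was at 0.414 to 6.26 CPM over all libraries. In untreated mice C4b was at 18.3, 15.4, 3.05 and 4.17 CPM in PMN-MDSC from spleen and at 243, 152, 188 and 317 CPM in those from tumor, without overlap. The difference was 20.1-fold (log2 fold change 4.33, SE 0.521, adjusted p = 7.3e-05, edgeR).

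In M-MDSC, C4b was at 30.1, 62.2, 16.6 and 7.86 CPM in untreated spleen and at 52.8, 100, 75.5 and 64.3 CPM in untreated tumor. In plain CPM these groups overlapped through library 6, though not after TMM scaling, and the log2 fold change of 1.63 (SE 0.542) had an adjusted p of 0.0522 by edgeR, which fell to 0.00155 without library 6 (2.36) and to 0.0442 without library 22 (1.24), and DESeq2 called it with all libraries. Within tumors, C4b was 3.17-fold lower in M-MDSC than in PMN-MDSC (log2 fold change -1.67, SE 0.247, adjusted p = 1.0e-03).

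Under treatment C4b rose in M-MDSC from tumor. The treated libraries held 164, 303 and 211 CPM, above all untreated ones, a 2.89-fold rise (log2 fold change 1.53, SE 0.267, adjusted p = 0.0229, edgeR). The call was lost without library 4, 20, 24 or 32 (adjusted p 0.0654 to 0.0805) and in 1 fit over all groups (adjusted p = 0.0514), and held without library 28. The part of the shifts in the marker sums of these libraries, given above, was not tested. In M-MDSC from treated spleens C4b was at 74.9, 111, 91.5 and 47.3 CPM (1.58, SE 0.568, adjusted p = 0.0874), and without library 6 it was called (2.30, adjusted p = 0.0153), as it was by DESeq2 with all libraries. In PMN-MDSC the log2 fold changes were 1.26 (SE 0.669) in spleen and 0.23 (SE 0.251) in tumor, neither called by edgeR with the limit on low counts or by DESeq2, while with no filter on low counts C4b was called in spleen (1.33, SE 0.382, adjusted p = 0.0113). The genes most like C4b over the MDSC libraries were the protease Ctsl and Ralgds (Pearson r 0.90 each) and the interferon-induced chemokine Cxcl9 (0.89).

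C3 (chr17:57203970-57228136) encodes the central component, whose cleavage releases the chemoattractant C3a and deposits C3b. It was the most even of the members across groups, with group means of 632 to 2088 CPM, and the bulk tumor libraries held 346, 1074, 1119 and 456 CPM, overlapping untreated MDSC. In PMN-MDSC from tumor C3 was at 656, 507, 711 and 654 CPM untreated and at 2227, 2231, 1841 and 2053 CPM treated. The groups were far apart, and C3 rose 3.25-fold (log2 fold change 1.70, SE 0.189, adjusted p = 8.5e-04, edgeR), a call that held without each library. In the same libraries the classical monocyte sum was 1714 to 3464 CPM treated and 4466 to 8639 CPM untreated, without overlap, the neutrophil sum 4091 to 10333 against 1069 to 4521 CPM and Ly6g 5.02 to 76.2 against 0 to 9.19 CPM, and their part in the rises of C3 and Cfb was not tested.

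In PMN-MDSC from spleen C3 was at 807, 803, 1276 and 886 CPM untreated and at 2435, 1331 and 1458 CPM treated, again without overlap. It rose 2.26-fold (log2 fold change 1.18, SE 0.275, adjusted p = 0.0285), a call that was lost without library 1, 5, 9, 21 or 29 (adjusted p 0.0505 to 0.0956). In the same libraries Ly6g was at 226 to 335 CPM treated and 34.5 to 84.7 CPM untreated and Ly6c2 at 584 to 995 against 40.6 to 99.3 CPM, both without overlap, and the part of these shifts and of those in the marker sums given above in the rise was not tested. The difference between the effects in tumor and spleen was 0.56 (SE 0.331, adjusted p = 0.447).

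In M-MDSC the changes of C3 did not pass the threshold by edgeR. The effect in M-MDSC less that in PMN-MDSC was -0.90 in spleen (adjusted p = 0.0960) and -0.68 in tumor (adjusted p = 0.535, edgeR interaction), and neither difference was called. In spleen C3 was at 1256, 1609, 1473 and 1449 CPM untreated and at 2113, 2118, 1535 and 1221 CPM treated, with overlap, and the log2 fold change was 0.34 (SE 0.190, adjusted p = 0.243), called without library 30 (0.51, adjusted p = 0.0433). In tumor it was at 874, 1053, 846 and 1068 CPM untreated and at 1500, 2553 and 2192 CPM treated, without overlap, with a log2 fold change of 1.02 (SE 0.243, adjusted p = 0.0571, edgeR). Without library 16 this was called (1.20, adjusted p = 0.0239), and DESeq2 called it with all libraries, as did edgeR with no filter on low counts (1.02, adjusted p = 0.00163).

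Between untreated groups, C3 was lower in PMN-MDSC from tumor than from spleen (log2 fold change -0.71, SE 0.202, adjusted p = 0.0111) and higher in M-MDSC than in PMN-MDSC from tumor (0.56, SE 0.158, adjusted p = 0.0319). The second call was lost without library 4, 7, 8, 19 or 23 (adjusted p 0.0508 to 0.0992) and in 1 fit over all groups (adjusted p = 0.0953). Between M-MDSC of tumor and of spleen it was at a log2 fold change of -0.33 (SE 0.142, adjusted p = 0.106), called without library 24 (-0.41, adjusted p = 0.0317) and by DESeq2 with all libraries. The gene most like C3 over the MDSC libraries was Irf7, a transcription factor of the interferon response (Pearson r 0.81), followed by Slc31a2 (0.77) and Med10 (0.76).

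Cfb (chr17:34856374-34862518) encodes factor B, the serine protease of the alternative pathway convertase, and is known to be inducible by interferon. In M-MDSC from spleen it was at 8.97, 8.83, 7.04 and 6.9 CPM untreated and at 202, 337, 260 and 166 CPM treated. Every treated library was far above every untreated one. Cfb rose 32.4-fold (log2 fold change 5.02, SE 0.267, adjusted p = 9.0e-06, edgeR).

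In M-MDSC from tumor Cfb was at 8.25, 12.1, 12.2 and 6.3 CPM untreated and at 112, 77.8 and 167 CPM treated, and rose 11-fold (log2 fold change 3.46, SE 0.317, adjusted p = 0.00216). In PMN-MDSC from tumor it was at 11.5, 4.88, 18 and 12.8 CPM untreated and at 108, 79.2, 38.8 and 57.7 CPM treated, and rose 5.77-fold (2.53, SE 0.363, adjusted p = 0.00343). Neither pair of groups overlapped, and all 3 calls held without each library, library 28 included. The part of the marker shifts given for M-MDSC from tumor in the rise of Cfb there was not tested.

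In PMN-MDSC from spleen Cfb had too few counts for the test, at 1.86, 1.99, 1.36 and 0.321 CPM untreated and at 4.48, 17.4 and 35.6 CPM treated. The treated libraries again lay above the untreated ones, of which library 21 held 1 count. Without the filter on low counts the log2 fold change was 4.14 (SE 0.501, adjusted p = 3.6e-14, edgeR). The p-values of that fit are not on the scale of the main fit. It passed 789 of 27640 genes at the stricter threshold here, against 3 of 7261 with the filter. Where Cfb passed the filter, without library 1, its log2 fold change was 4.29 (adjusted p = 0.0328, edgeR). The difference between the effects in tumor and spleen was -1.56 (SE 0.809, adjusted p = 0.367) in PMN-MDSC and -1.54 (SE 0.426, adjusted p = 0.108) in M-MDSC, the latter called without library 32 (-1.89, adjusted p = 0.0393). By mean level, the order was M-MDSC of treated spleen (241 CPM), M-MDSC of treated tumor (119 CPM) and PMN-MDSC of treated tumor (71 CPM), whose ranges overlap between neighbours, and then all other groups, the highest of which was bulk tumor at 21.8 CPM.

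Between untreated groups Cfb was below the limit on counts. It was read from the edgeR fit without that limit, whose p-values are not on the scale of the main fit. In PMN-MDSC it was higher in tumor than in spleen there (log2 fold change 2.88, SE 0.511, adjusted p = 2.7e-07), and in spleen it was higher in M-MDSC than in PMN-MDSC (2.12, SE 0.514, adjusted p = 2.8e-04). The log2 fold changes of 0.61 (SE 0.376) between tumor and spleen in M-MDSC and -0.23 (SE 0.388) between the cell types in tumor were not called. Over the MDSC libraries the genes most like Cfb were Bst2 (Pearson r 0.96), Ifi44 (0.95) and Phf11d (0.94), of which Bst2, the antiviral tetherin, and Ifi44 are known interferon-stimulated genes.

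Cfp (chrX:20925454-20931555) encodes properdin, which stabilizes the alternative pathway convertase and is stored in granules of neutrophils. It was at 157, 155, 129 and 143 CPM in PMN-MDSC of untreated spleen and at 55.4, 83.6, 54.2 and 42.6 CPM in the M-MDSC, 3.22-fold lower without overlap (log2 fold change -1.69, SE 0.214, adjusted p = 1.3e-04, edgeR). In untreated tumors the cell types did not separate, with 209, 137, 210 and 219 CPM in PMN-MDSC and 279, 164, 260 and 117 CPM in M-MDSC (0.05, SE 0.245, adjusted p = 0.931). M-MDSC from tumor were therefore 4.21-fold above those from spleen (2.07, SE 0.284, adjusted p = 2.2e-04), while between tumor and spleen in PMN-MDSC the log2 fold change was 0.26 (SE 0.185, adjusted p = 0.241).

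Under treatment Cfp rose in M-MDSC from spleen, to 95.5, 107, 142 and 110 CPM, 2.03-fold above the untreated libraries (log2 fold change 1.02, SE 0.222, adjusted p = 0.0110). This call held without each library. The classical monocyte sum of these libraries was 4999 to 6148 CPM treated and 7433 to 9861 CPM untreated, without overlap, and with the shift in red pulp markers given above its part in the rise was not tested. In the other 3 populations the log2 fold changes were -0.10 (SE 0.192), 0.26 (SE 0.193) and 0.08 (SE 0.285) for PMN-MDSC of spleen, PMN-MDSC of tumor and M-MDSC of tumor, none of them called. The effect in spleen was larger in M-MDSC than in PMN-MDSC by 1.04 (SE 0.296, adjusted p = 0.0367), a call that held in 5 of 15 fits with 1 library left out. Bulk tumor held 5.42 to 8.48 CPM. Basp1 and Plk2 (Pearson r 0.87 each) and Tgm2 (0.85) were most like Cfp.

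C3ar1 (chr6:122847138-122856161) encodes the receptor of C3a. In PMN-MDSC it was at 269, 284, 268 and 228 CPM in untreated tumor and at 11.4, 4.48, 4.07 and 2.25 CPM in untreated spleen. The difference was 42.1-fold (log2 fold change 5.40, SE 0.381, adjusted p = 3.6e-06, edgeR), and 6.06 on the log2 scale without library 1, the highest in spleen. In M-MDSC it was at 273, 198, 279 and 224 CPM in tumor against 45.9, 23.7, 48 and 22.1 CPM in spleen, 8.46-fold higher (3.08, SE 0.263, adjusted p = 5.2e-06). The macrophage sum moved with these differences, at 8558 to 11931 CPM in tumor against 349 to 1023 CPM in spleen in PMN-MDSC and 3446 to 8017 against 766 to 1006 CPM in M-MDSC, and its part in them was not tested. In spleen it was higher in M-MDSC than in PMN-MDSC (2.22, SE 0.458, adjusted p = 0.00217, and 2.88 without library 1), whereas in tumor the log2 fold change was -0.15 (SE 0.152, adjusted p = 0.580).

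No treatment effect on C3ar1 was called with the limit on low counts, and 2 were called without it. Treated PMN-MDSC of spleen held 2.56, 0 and 0 CPM, where 3 counts correspond to 1.08 to 1.92 CPM, too few for the test, and on the fit with no filter on low counts the log2 fold change was -2.77 (SE 0.815, adjusted p = 0.0142, edgeR). Treated M-MDSC of spleen held 20.5, 21, 20.6 and 20.3 CPM, just below the untreated range in plain CPM but not after TMM scaling (-0.68, SE 0.271, adjusted p = 0.111), and without library 22 this was called (-0.86, adjusted p = 0.0481). In tumors the treated libraries held 407, 466, 235 and 186 CPM in PMN-MDSC (0.25, SE 0.239, adjusted p = 0.638) and 308, 742 and 316 CPM in M-MDSC (0.80, SE 0.319, adjusted p = 0.206). With no filter on low counts C3ar1 was called in the latter (0.80, SE 0.241, adjusted p = 0.0278). Here libraries 11, 15 and 28, those with the highest macrophage sums, were the highest. The effect in PMN-MDSC of tumor exceeded that in spleen by 3.14 (SE 0.962, adjusted p = 0.0881, edgeR), a difference that rests on treated spleen libraries of which 1, library 9, had counts. Without library 9 it was called (7.19, adjusted p = 0.0162), as was the difference between M-MDSC and PMN-MDSC in spleen, which went from 2.11 (SE 1.04, adjusted p = 0.205) to 6.46 (adjusted p = 0.0277), but the treated group then held 0 counts and these fitted values are no measured size. With all libraries the difference between tumor and spleen was called by DESeq2 and by edgeR with no filter on low counts (3.16, SE 0.586, adjusted p = 2.1e-05). The genes most like C3ar1 were Sh3pxd2b (Pearson r 0.99), Cttnbp2nl and the lysosomal protease Lgmn (0.97 each), and its r with the C1q chains was 0.85 to 0.87.

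C5ar1 (chr7:16246743-16259540) encodes the receptor of C5a, which draws neutrophils to sites of complement activation. It was at 261, 355, 280 and 322 CPM in PMN-MDSC of untreated spleen and at 7.38, 20.4, 18.2 and 12.4 CPM in the M-MDSC, 27.1-fold lower without overlap (log2 fold change -4.76, SE 0.299, adjusted p = 2.4e-06, edgeR). In untreated tumor the levels were nearer, at 183, 158, 210 and 184 CPM in PMN-MDSC and 171, 102, 123 and 107 CPM in M-MDSC. That difference, -0.58 (SE 0.179, adjusted p = 0.0497), held in 1 of 8 fits with 1 library left out: the call was lost without library 3, 7, 8, 19, 20, 23 or 24 (adjusted p 0.0665 to 0.138). It was also lost with RLE and upper-quartile scaling, without the limit on counts and in 1 fit over all groups (adjusted p up to 0.218).

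Tumor and spleen differed in C5ar1 in opposite directions in the cell types. PMN-MDSC from tumor were 1.84-fold below those from spleen (log2 fold change -0.88, SE 0.190, adjusted p = 0.00255), and M-MDSC from tumor 10.3-fold above those from spleen (3.37, SE 0.280, adjusted p = 4.0e-06, edgeR). The summed neutrophil markers were 22674 to 41100 CPM in PMN-MDSC of untreated spleen and 1069 to 4521 CPM in those of untreated tumor, and in M-MDSC they were likewise lower in tumor (247 to 788 CPM) than in spleen (4097 to 10326 CPM), where C5ar1 went the other way. Their part in the level of C5ar1 was not tested.

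Under treatment C5ar1 rose in M-MDSC from spleen, from 7.38 to 20.4 CPM in untreated libraries to 54, 34.1, 65.5 and 94.2 CPM. The groups did not overlap, and the rise was 4.43-fold (log2 fold change 2.15, SE 0.366, adjusted p = 0.00359, edgeR), a call that held without each library. The neutrophil sum was lower in the treated libraries (1044 to 6251 CPM) than in the untreated ones (4097 to 10326 CPM), though the ranges overlapped. Without overlap, the sums of red pulp (1010 to 1441 against 517 to 703 CPM), endothelial (129 to 293 against 25 to 34.8 CPM) and plasmacytoid dendritic cell markers (140 to 230 against 80.2 to 107 CPM) were higher in these treated libraries, and those of classical monocyte (4999 to 6148 against 7433 to 9861 CPM), macrophage (263 to 560 against 766 to 1006 CPM) and erythroid markers (0 to 2.91 against 26.9 to 57.8 CPM) were lower. The part of these cells in the rises of C5ar1, Cfp and Cfb in M-MDSC of spleen was not tested. In the other populations C5ar1 was not called, with log2 fold changes of 0.43 (SE 0.224) in PMN-MDSC of spleen, 0.43 (SE 0.235) in PMN-MDSC of tumor and 0.11 (SE 0.271) in M-MDSC of tumor. In spleen the effect was larger in M-MDSC than in PMN-MDSC by 1.62 (SE 0.454, adjusted p = 0.0350), which held in 7 of 15 fits with 1 library left out. In M-MDSC the effect in tumor was below that in spleen by 2.01 on the log2 scale, at -2.01 (SE 0.483, adjusted p = 0.0667), and was called without library 14 (-2.23, adjusted p = 0.0468) or 32 (-2.27, adjusted p = 0.0491). The genes most like C5ar1 were Adam8 (Pearson r 0.97), Mxd1 (0.95) and the chemokine receptor Ccr1 (0.94).

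Per kilobase of exon, the genes ranked differently by population. In untreated PMN-MDSC of spleen C3 was highest at 183 ± 43.8 FPKM (SD, n = 4), followed by C5ar1 at 118 ± 16.5 and Cfp at 84.2 ± 7.53 FPKM, with C3ar1 at 1.29 ± 0.935 and Cfb at 0.489 ± 0.268 FPKM. In untreated M-MDSC of spleen C3 was at 281 ± 28.2 FPKM and Cfp, the next highest, at 34 ± 10 FPKM. In untreated PMN-MDSC of tumor all 3 C1q genes stood above C3, which was at 123 ± 17 FPKM. In untreated M-MDSC of tumor C3 at 187 ± 22.7, C1qa at 212 ± 84.4 and C1qb at 273 ± 111 FPKM lay within their spread.

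Bulk tumor held low levels of most members. C1qa was at 11.8, 18.3, 32.7 and 27.9 CPM and C5ar1 at 0.925, 1.59, 2.25 and 2.52 CPM, with no overlap with MDSC from untreated tumor. Against PMN-MDSC, 7 of 9 members were called, all lower in bulk tumor (69.5% of all genes were called and 33.3% lower), and against M-MDSC 6 of 9 (69.2% and 31%). These 6, C1qa, C1qb, C1qc, Cfp, C3ar1 and C5ar1, were 10.6-fold to 76.2-fold lower than in M-MDSC. With edgeR and the limit on low counts, C3 and Cfb were not called against either population (C3 log2 fold change -0.05, SE 0.341, and -0.55, SE 0.344). Cfb was called higher in bulk tumor with no filter on low counts (0.79, adjusted p = 0.0186, against PMN-MDSC and 1.08, adjusted p = 0.00349, against M-MDSC), and DESeq2 called it against M-MDSC. Against M-MDSC, Cfb was also called without library 41 (1.33, adjusted p = 0.00429) and C4b lower without library 45 (-1.26, adjusted p = 0.0113, edgeR). Bulk tumor also held 4028 to 5933 CPM of 5 epithelial markers and 839 to 1094 CPM of 6 fibroblast markers, against at most 620 and 134 CPM in MDSC from tumor. The part of cell composition in these differences was not tested.

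Of 42 other complement genes listed from the cascade, its regulators and its receptors, 9 to 14 could be tested for treatment. In PMN-MDSC of spleen, 3 of 12 other genes tested fell and 0 rose: the lectin Fcna (log2 fold change -4.08, SE 0.551, adjusted p = 0.00411), the terminal component C6 (-5.31, SE 0.812, adjusted p = 0.00659) and the integrin chain Itgax (-2.87, SE 0.591, adjusted p = 0.0192). Of all tested genes, 11.6% were called there. The list's median log2 fold change was -0.68, against 0.01 over all genes. Besides the macrophage and red pulp sums given above, the sum of 7 markers of conventional dendritic cells, Itgax among them, was 7.92 to 60.9 CPM in these treated libraries and 258 to 443 CPM in the untreated ones, and the part of these cells in the falls was not tested. The C1q-binding chaperone calreticulin, Calr, rose in M-MDSC of spleen (1.18, SE 0.237, adjusted p = 0.00735). The medians of the list there were 0.23 in both M-MDSC populations and 0.15 in PMN-MDSC of tumor.

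Between tumor and spleen of untreated mice, 5 of 15 other genes tested were higher and 8 lower in PMN-MDSC, and 6 of 11 were higher and 1 lower in M-MDSC. Of all genes, 59.1% were called in PMN-MDSC, 29.4% higher in tumor, and 28.4% in M-MDSC, 15.7% higher in tumor. Cd93, a surface lectin of myeloid cells, was higher in tumor in both (log2 fold change 3.28 and 1.05). C5ar2, which encodes the second C5a receptor, was lower in tumor in PMN-MDSC (-1.60, SE 0.250, adjusted p = 3.6e-04) and higher in M-MDSC (2.44, SE 0.361, adjusted p = 3.4e-04, edgeR), the directions of C5ar1. It was also lower in M-MDSC than in PMN-MDSC of spleen (-4.90, SE 0.329, adjusted p = 3.2e-06) and of tumor (-0.94, SE 0.260, adjusted p = 0.0308).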

How the data were processed

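Fragments per gene were deposited by the authors as raw counts, 1 column per library, without normalization. RNA of sorted cells and bulk tumor was depleted of ribosomal RNA and amplified with a stranded total RNA kit without molecular identifiers. Reads were mapped to mm10 with ContextMap and BWA and counted by strand with featureCounts (Subread 1.4.6-p3) on Gencode v16, per the labels and the study's methods. Counts per library ranged from 793070 to 8886115, and precision covers fragments after PCR.

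Columns were assigned to groups by the cell type, organ and treatment in their names. Of 35 columns, 1 with 10 counts was left out (minimum 1000). Among 48 pairs of libraries within groups 0 were identical, with chi-square per degree of freedom of 6.19 to 49.5. GENCODE M21 (GRCm38) gave symbols, positions and exon lengths. CPM is relative to all counts on genes, and FPKM divides CPM by kilobases of exon.

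Each comparison was fitted in edgeR 4.0.16 (R 4.3.3) on its own libraries with TMM scaling, robust estimates and the quasi-likelihood F-test, with a limit of 25 on the mean count of a gene. Adjusted p follows Benjamini-Hochberg over all tested genes, and the standard error is the log2 fold change divided by the root of F. Interaction terms compared treatment effects. The code was tested on simulated counts. Alternatives were RLE scaling, scaling to the upper quartile, a fit of all genes with any count, a limit of 10 on the lowest library, DESeq2 1.42.0, estimates that were not robust, the study's stricter threshold, 1 fit over all groups, TMM-scaled levels and each library left out. The interactions of cell type and treatment were added after the data were seen.

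The members and gene lists were chosen with earlier results of these data known. All 9 members are named whatever their values, as are at most 6 called genes of the other complement list per comparison, by smallest adjusted p, and the genes with the highest Pearson r of log2(CPM + 1), 5 for C1q and 3 for each other member. Some items of the study are not reported here.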

Additional observations from a re-analysis of the deposited data

Results flagged for a closer look

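In M-MDSC of untreated spleen, C1qa was at 24.8 CPM in library 2 and at 9.1 to 10 CPM in the other 3 libraries, a gap of 0.943 of the group's range, above Dixon's 95% critical value for 4 libraries. In PMN-MDSC of untreated tumor, Cfp was at 137 CPM in library 7 and at 209 to 219 CPM in the others, a gap of 0.878 of the range. These 2 stood out among 63 sets examined, each holding the levels of 1 member in a group of 4 libraries, and chance flags about 1 in 20 such sets.

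The effect of poly(I:C)c differed between tumor and spleen in PMN-MDSC for C1qa, C1qb and C1qc, by 3.26, 2.74 and 3.19 on the log2 scale. It differed between M-MDSC and PMN-MDSC in spleen for C1qa, C1qb and C1qc by 3.57, 3.63 and 3.65, for Cfp by 1.04 and for C5ar1 by 1.62. All 8 differences passed an adjusted p under 0.05 in the edgeR interaction, and the 5 in spleen were looked for after the values had been seen.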

How the results depend on the processing

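No called log2 fold change of a member changed sign under the alternatives run, while 35 of 2017 recomputed values, in 9 results that were not called, did, at sizes of at most 0.35. The number of members called in each comparison moved by over 1.5 times as follows. Under the stricter threshold it was 0 for treatment in PMN-MDSC of spleen and in M-MDSC of tumor, 1 in PMN-MDSC of tumor and in M-MDSC of spleen, 3 between the cell types in spleen, 1 between them in tumor, and 0 for the interactions in PMN-MDSC and in spleen. With no filter on low counts it was 7 in PMN-MDSC of spleen, 4 in PMN-MDSC of tumor, 6 in M-MDSC of tumor, 4 for the interaction in M-MDSC and 1 for that in tumor. In this order that fit called 1818 of 27640, 864 of 29685, 1064 of 25966, 659 of 29825 and 161 of 32574 genes. Its p-values are not on the scale of the main fit, as for C1qa in PMN-MDSC of spleen (adjusted p = 3.6e-09 against 0.0234, edgeR). With at least 10 counts in every library, 1 member was called in PMN-MDSC of tumor (237 of 8444 genes). DESeq2 called 4 members there (613 of 8308 genes), 6 in M-MDSC of tumor (797 of 8360) and 3 for the interaction in M-MDSC (307 of 8730). The setting of 1 fit over all groups called 5 in M-MDSC of tumor (773 of 8360) and 1 for that interaction (121 of 8730). With 1 library left out, the counts ran from 0 to 5 in PMN-MDSC of spleen, 2 to 4 in PMN-MDSC of tumor, 1 to 6 in M-MDSC of tumor, 0 to 2 for the interaction in M-MDSC and 3 to 5 for that in spleen. The causes were not tested. DESeq2 with the stricter threshold, added after the data were seen, called 4, 2, 5 and 4 members for treatment in PMN-MDSC of spleen, PMN-MDSC of tumor, M-MDSC of spleen and M-MDSC of tumor. Of all genes it called 517 of 7261, 193 of 8308, 610 of 8827 and 215 of 8360 in this order. For single genes, leaving out 1 library left 1125 values on the same side of the threshold, called or not called, ended a call in 50 and made one in 21, and the other settings left 765 on the same side, ended a call in 9 and made one in 47. Scaling to the upper quartile moved the median log2 fold change of all genes to -0.16 for treatment in PMN-MDSC of spleen, where 336 genes were then higher and 607 lower against 443 and 401, and to 0.33 between the cell types in spleen. No paired analysis was possible by name because the columns carry a running number and not the mouse number of the labels. Pairs could be set only by column order. The running numbers follow the order of the labels and skip a number where a label is absent, but no fit used pairs set this way. The effect of pairing on the comparisons between organs or cell types, with bulk tumor and on the interactions was not tested. Groups of 3 or 4 libraries limit what could be detected, and Cfb and C3ar1 had few counts in PMN-MDSC of spleen, whose smallest library held 1561674 counts.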
